A study of Mus musculus with 9 samples.

Results

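Messenger RNA of 8 genes of cholesterol synthesis and its control was compared between mouse embryonic stem cells (ESCs) and embryoid bodies. The genes were Hmgcs1, Mvd, Idi1, Fdft1, Sqle, Cyp51 and Dhcr7, which encode enzymes of the pathway, and Insig1, which encodes a brake on it; none of the 8 encodes a receptor that takes cholesterol up. Members were all probe sets that the array annotation pairs with one of these symbols alone, which gave 19 probe sets for the 8 genes, out of 45037 probe sets and 18193 genes in all. Both groups came from E14 cells, an established mouse ESC line, were given no treatment and were measured as total RNA. The 4 ESC arrays are labelled ES2, ES6, ES8 and ES10. The 5 embryoid body arrays are labelled EB1, EB3, EB5, EB7 and EB9. Embryoid bodies are aggregates in which ESCs leave the pluripotent state and form a mixture of cell types, and the labels give neither their age nor their culture medium. RNA was hybridized to Affymetrix Mouse 430 2.0 arrays. All values are log2 of the deposited GCRMA intensities, so a difference of 1 is a doubling, and levels of different probe sets cannot be compared with each other. The study's methods call the ESC samples biological replicates, while nothing states that the embryoid bodies came from separate cultures, so the p-values measure only the spread between these samples. In such bulk samples, fewer cells of a type and less RNA per cell cannot be told apart.

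Cholesterol is built from acetyl-CoA in a long series of steps. Mevalonate is made first, is turned into isoprenoid units that are joined to squalene, and squalene is closed to lanosterol, which is trimmed to cholesterol. The genes of these enzymes share a control loop: when sterols in the endoplasmic reticulum membrane run low, the carrier Scap escorts the transcription factor SREBP-2, encoded by Srebf2, to the Golgi, where proteases release its active part, and when sterols are plentiful the Insig proteins hold the complex back. Growing cells need the pathway for new membranes, and its intermediates also feed protein prenylation, dolichol and coenzyme Q.

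The arrays matched their labels. Of 10 pluripotency markers 9 fell in embryoid bodies, among them Zfp42 by 6.47, Fgf4 by 5.75 and Utf1 by 4.67 on the log2 scale. Of 12 mesoderm and heart markers 8 rose, led by the cardiac myosin light chain Myl7 with a difference of 9.05. Of 12 visceral endoderm markers 3 rose and 1 fell, and 5 lay under log2 4 on every array, a level near the floor of the scale under which between 49.1% and 49.9% of the probe sets of each array lay. Of 8 blood and endothelium markers 4 rose, and of 8 fibroblast and mesenchyme markers 7 rose. Over all genes 15.7% rose and 14.7% fell. Neither group of arrays formed one tight set. ES2 and ES6 correlated at Pearson r = 0.998 across probe sets, as did ES8 and ES10, whereas pairs across these sets correlated at 0.995 to 0.996. In embryoid bodies EB7 and EB9, and EB1, EB3 and EB5, correlated within their sets at 0.998 to 0.999, and across them at 0.997 to 0.998. The sum of the linear intensities of the 8 fibroblast and mesenchyme markers was 2143 on ES2, 1734 on ES6, 7212 on ES8 and 6569 on ES10, against 24360 to 27770 in embryoid bodies. On the ESC arrays most of this sum came from Acta2, which read log2 12.64 on ES8. On EB7 and EB9 the same sum for the 8 blood and endothelium markers was 3072 and 3805, against 11320 to 11940 on EB1, EB3 and EB5. The globins Hbb-bh1, Hbb-y and Hba-x made up most of it. The sum of the 10 pluripotency markers was 4755 and 3852 on EB7 and EB9, against 5972 to 7370 on EB1, EB3 and EB5. The 8 genes are therefore given with and without each pair of ESC arrays, and called lipid genes where leaving out a pair changed their call or moved their difference by over 1.5 times.

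Promoter sequences were searched for the letters of known control elements. RefSeq entries for GRCm38.p6 covered 6 of the 8 genes, and there was none for Fdft1 and Sqle. Stretches of 250 bases before the start of transcription are shown 5′ to 3′ on the strand of the gene for the 3 genes whose rise passed the test described below. These were Hmgcs1 at chr13:119690101-119690350 on the plus strand, Idi1 at chr13:8885356-8885605 on the plus strand and Cyp51 at chr5:4104698-4104947 on the minus strand. Capitals mark a sterol regulatory element, written TCACNCCAC and bound by SREBPs, and the CCAAT box, bound by NF-Y, each on either strand. Only this spelling of the sterol regulatory element was searched, so any other spelling is left in lower case and its absence is not shown.
Hmgcs1: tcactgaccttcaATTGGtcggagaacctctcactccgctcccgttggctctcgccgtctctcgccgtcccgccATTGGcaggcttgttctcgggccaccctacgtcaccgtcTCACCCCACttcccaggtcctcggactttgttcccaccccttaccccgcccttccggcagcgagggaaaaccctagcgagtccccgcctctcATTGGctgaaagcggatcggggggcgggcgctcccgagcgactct
Idi1: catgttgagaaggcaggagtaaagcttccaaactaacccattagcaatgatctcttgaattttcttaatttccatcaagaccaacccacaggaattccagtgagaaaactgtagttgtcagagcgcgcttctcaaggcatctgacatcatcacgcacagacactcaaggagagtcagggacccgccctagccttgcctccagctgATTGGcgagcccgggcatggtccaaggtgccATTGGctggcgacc
Cyp51: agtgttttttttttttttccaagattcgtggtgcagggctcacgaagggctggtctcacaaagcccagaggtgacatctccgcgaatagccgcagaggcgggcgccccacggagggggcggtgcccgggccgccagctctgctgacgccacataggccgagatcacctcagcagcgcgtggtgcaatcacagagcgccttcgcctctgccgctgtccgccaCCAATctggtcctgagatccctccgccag
The letters TCACNCCAC were found in the promoter of Hmgcs1, beginning 137 bases before the start, and in none of the other genes with an entry. They occurred in 1.05% of all 32851 promoters of this length. The 6 genes had 8 entries, of which 3 were of Dhcr7. A CCAAT box was found in 6 of the 8 entries, 1 for each gene, against 33.8% of all promoters, with 3 boxes in Hmgcs1, and in Idi1 boxes at 45 and 14 bases before the start. The E-box CACGTG was found in 2 of the 8 entries, that of Insig1 and 1 of Dhcr7, against 6.02% of all promoters, and the GC box GGGCGG in 7 of the 8, against 32.7%. A match is a description of the letters in this window, and the motifs were chosen after earlier results were known.

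Of the 8 genes, 3 rose in embryoid bodies at an adjusted p under 0.05 by limma, namely Hmgcs1, Idi1 and Cyp51, and none fell. Over all genes tested, 15.7% rose and 14.7% fell at the same threshold, each gene being represented by its probe set with the highest mean. These shares take in 5788 genes that stayed under log2 4 on every array. Among the 11982 genes with a mean of log2 4 or more, as all 8 genes had, 2806 rose and 2507 fell, which are larger shares. The shares over all genes given beside the lists below carry the same limit. The median difference of the 8 genes was 0.31, against -0.04 over all genes. Every embryoid body array lay above every ESC array for 3 of the 8 genes, Hmgcs1, Cyp51 and Dhcr7. This held for 15.6% of all genes, and for 2777 of the 11982 with a mean of log2 4 or more. Among probe sets, 8 of the 19 rose and none fell, against 10.5% of all probe sets that rose; 15 of the 19 reached log2 4 on some array and 4 stayed under it on every array.

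**Figure D1:**
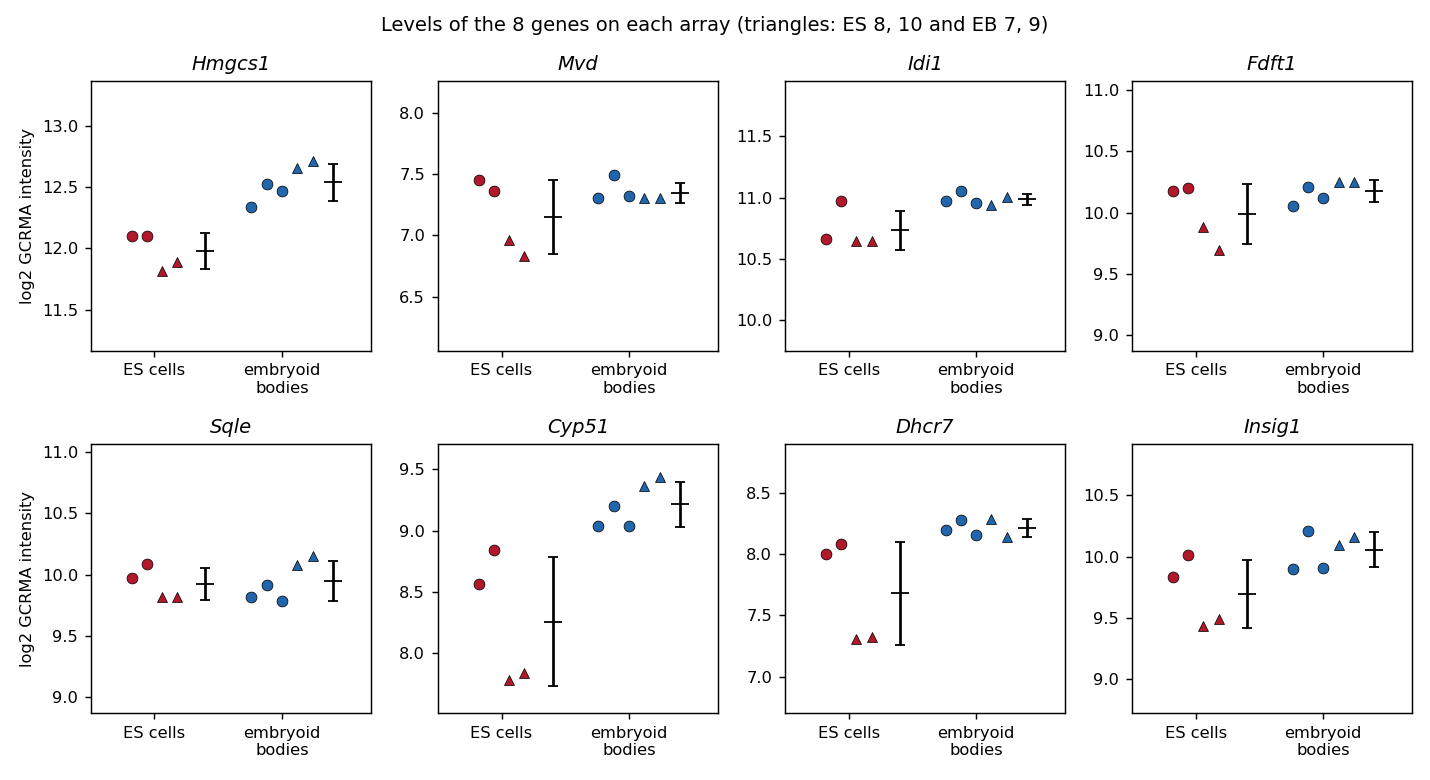
Level of each of the 8 genes on each array, as log2 GCRMA intensity of the probe set with the highest mean; red marks are the 4 ESC arrays, blue marks the 5 embryoid body arrays, triangles ES8, ES10, EB7 and EB9, and the bars give the mean ± SD of each group. Embryoid bodies lay above all ESC arrays for Hmgcs1, Cyp51 and Dhcr7, and ES8 and ES10 lay below ES2 and ES6 for all 8 genes.

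Hmgcs1 (chr13:119690351-119708260) encodes the cytosolic HMG-CoA synthase that makes the precursor of mevalonate. Its probe set 1433445_x_at read 12.10, 12.10, 11.82 and 11.89 on ES2, ES6, ES8 and ES10, and 12.33, 12.53, 12.47, 12.66 and 12.71 on EB1, EB3, EB5, EB7 and EB9. The groups did not overlap. The mean rose from 11.98 ± 0.15 (SD, n = 4) to 12.54 ± 0.15 (SD, n = 5), a difference of 0.56 ± 0.09 (SE), or 1.47-fold (limma, adjusted p = 0.00165). Of the 5 probe sets of Hmgcs1, 4 rose, by between 0.53 and 0.69, and embryoid bodies lay above ESCs on each of them. The fifth, 1441536_at, stayed between 3.13 and 3.97, under log2 4 on every array. In each of the 21 alternative settings the p stayed under 0.05, with differences from 0.44 to 0.68, all of them short of a doubling.

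Mvd (chr8:122433596-122443422) encodes mevalonate diphosphate decarboxylase, which makes isopentenyl diphosphate. Its probe set 1448663_s_at read 7.45, 7.37, 6.96 and 6.83 on ES2, ES6, ES8 and ES10, and 7.30, 7.49, 7.32, 7.30 and 7.30 on EB1, EB3, EB5, EB7 and EB9. The embryoid body values lay around those of ES2 and ES6 and above those of ES8 and ES10. The difference was 0.19 ± 0.13 (95% interval -0.10 to 0.49; limma, adjusted p = 0.231). The other probe set, 1417303_at, gave 0.32 ± 0.23 (adjusted p = 0.263).

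Idi1 (chr13:8885606-8892396) encodes the isomerase that converts isopentenyl diphosphate to the activated isoprenoid unit. Its probe set 1451122_at read 10.67, 10.97, 10.65 and 10.65 on ES2, ES6, ES8 and ES10, and 10.97, 11.06, 10.95, 10.94 and 11.01 on EB1, EB3, EB5, EB7 and EB9. ES6 reached the level of embryoid bodies, and the other 3 ESC arrays lay below them. Idi1 rose by 0.25 ± 0.07, or 1.19-fold (limma, adjusted p = 0.0322). On 1423804_a_at the rise was 0.31 ± 0.09 (adjusted p = 0.0313), and there the groups did not overlap. The p of Idi1 did not stay under 0.05 in 10 of 21 alternative settings. Among them was each fit without ES2, ES8, ES10, EB1, EB3, EB5 or EB7, with adjusted p up to 0.0882 in those fits. Apart from these, Idi1 was not called where a fold of 2 or more was required.

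Fdft1 (chr14:63145150-63181687) encodes squalene synthase, the first enzyme committed to sterols. Its probe set 1448130_at read 10.18, 10.20, 9.89 and 9.69 on ES2, ES6, ES8 and ES10, and 10.05, 10.21, 10.12, 10.25 and 10.25 on EB1, EB3, EB5, EB7 and EB9. ES2 and ES6 stood within the range of embryoid bodies, and ES8 and ES10 below it. The difference was 0.19 ± 0.11 (95% interval -0.06 to 0.43; limma, adjusted p = 0.173). The probe set 1438322_x_at gave 0.37 ± 0.16 (adjusted p = 0.101), and the other two stayed at about log2 1.9.

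Sqle (chr15:59315092-59331193) encodes squalene epoxidase, which catalyses the first step of sterol synthesis that needs oxygen. Its probe set 1415993_at read 9.97, 10.09, 9.82 and 9.81 on ES2, ES6, ES8 and ES10, and 9.81, 9.92, 9.78, 10.08 and 10.15 on EB1, EB3, EB5, EB7 and EB9. The groups overlapped over most of their range. The difference was 0.03 ± 0.09, with a 95% interval of -0.19 to 0.24 (limma, adjusted p = 0.824). Within embryoid bodies EB7 and EB9 were the highest, 0.28 above the mean of EB1, EB3 and EB5.

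Cyp51 (chr5:4080674-4104697) encodes lanosterol 14-alpha-demethylase, which begins the trimming of lanosterol. Its probe set 1450646_at read 8.56, 8.85, 7.78 and 7.84 on ES2, ES6, ES8 and ES10, and 9.03, 9.20, 9.03, 9.37 and 9.44 on EB1, EB3, EB5, EB7 and EB9. All embryoid body arrays lay above all ESC arrays, and ES8 and ES10 stood far below ES2 and ES6. Cyp51 rose from 8.26 ± 0.53 (SD, n = 4) to 9.21 ± 0.19 (SD, n = 5), by 0.96 ± 0.22 (SE), or 1.94-fold (limma, adjusted p = 0.0135). The probe set 1422533_at read 8.05, 7.70, 7.74 and 7.62 on ES2, ES6, ES8 and ES10 and 8.53, 8.82, 8.69, 9.02 and 9.01 on EB1, EB3, EB5, EB7 and EB9. It rose by 1.04 ± 0.12, or 2.05-fold (adjusted p = 0.000252), with a much smaller gap between the pairs of ESC arrays than on 1450646_at, -0.19 against -0.89. The third, 1422534_at, stayed near log2 2.5. Without EB7 and EB9 the difference on 1450646_at was 0.83 and no longer passed the test (adjusted p = 0.0746).

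Dhcr7 (chr7:143823167-143848410) encodes 7-dehydrocholesterol reductase, which carries out the last step to cholesterol in one branch of the pathway. Its only probe set, 1448619_at, read 8.0, 8.08, 7.31 and 7.32 on ES2, ES6, ES8 and ES10, and 8.20, 8.28, 8.15, 8.29 and 8.14 on EB1, EB3, EB5, EB7 and EB9. The groups did not overlap, with ES2 and ES6 just below the embryoid bodies and ES8 and ES10 far below them. The difference of 0.53 ± 0.17, or 1.45-fold, did not pass the threshold over all probe sets (limma, adjusted p = 0.0563; 95% interval 0.15 to 0.92). An exact two-sided permutation test of this value alone gave p = 0.00794, the smallest that 126 arrangements of 4 and 5 arrays allow, without adjustment. The difference passed the test when probe sets with a mean under log2 4 were left out (adjusted p = 0.0319).

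Insig1 (chr5:28071412-28078662) encodes the membrane protein that retains Scap and SREBP in the endoplasmic reticulum, and is itself a known SREBP target. Its probe set 1454671_at read 9.84, 10.01, 9.44 and 9.49 on ES2, ES6, ES8 and ES10, and 9.90, 10.21, 9.91, 10.09 and 10.16 on EB1, EB3, EB5, EB7 and EB9. ES6 overlapped the embryoid bodies, ES2 lay just below them, and ES8 and ES10 well below. The difference was 0.36 ± 0.13, or 1.28-fold (95% interval 0.07 to 0.65; limma, adjusted p = 0.0765). It passed the test after quantile normalization (0.41; adjusted p = 0.0192).

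The 8 genes differed among themselves in the size of the change. The 28 pairwise differences of change were each tested by an exact two-sided permutation of the arrays, with Benjamini-Hochberg adjustment over these comparisons. The smallest p possible, 0.00794, or 0.0202 after adjustment, was reached by 11 pairs. Cyp51 changed more than Mvd, Idi1, Fdft1, Sqle, Dhcr7 and Insig1, by between 0.42 and 0.93. Hmgcs1 changed more than Fdft1, by 0.37, and than Sqle, by 0.53. The remaining pairs of the 11 were Dhcr7 above Mvd, by 0.34, and above Fdft1, by 0.35, and Insig1 above Sqle, by 0.33. The change of Cyp51 exceeded that of Hmgcs1 by 0.40, which did not pass after adjustment (exact permutation test, adjusted p = 0.0833). These tests used 1 probe set per gene. Fdft1 changed by 0.37 on 1438322_x_at against 0.19 on the probe set used, Mvd by 0.32 on 1417303_at against 0.19, and Cyp51 by 1.04 on 1422533_at against 0.96.

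On the probe set that represents each gene, all 8 genes were lower on both ES8 and ES10 than on both ES2 and ES6. Among the 11982 genes with a mean of log2 4 or more, 31.0% showed the same order. The median difference of the 8 genes between these pairs was -0.43, against -0.02 over those genes, and it ranged from -0.17 for Idi1 to -0.89 for Cyp51. The next largest gaps were -0.73 for Dhcr7, -0.51 for Mvd and -0.46 for Insig1. On 1422533_at of Cyp51 the gap was only -0.19, and ES8 (7.74) lay above ES6 (7.70). The mean of the 8 genes was 9.60 on ES2 and 9.71 on ES6, 9.21 on ES8 and 9.19 on ES10, and 9.70 to 9.90 on the embryoid body arrays. The pairs were named in earlier results of these data, and no test was run between them. Markers of fibroblasts and mesenchyme moved the opposite way. Of these, 5 of 8 were higher on both ES8 and ES10 than on both ES2 and ES6, against 13.6% of all genes and 17.0% of those with a mean of log2 4 or more. Acta2, smooth muscle actin, read 10.81 and 10.49 on ES2 and ES6 and 12.64 and 12.49 on ES8 and ES10, and Col1a1, a collagen chain, 6.98 and 6.78 against 9.03 and 9.02. Postn and Thy1, also on this list, lay at log2 2.95 and 2.26 on average in ESCs, near the floor, and Twist1, a mesenchymal transcription factor, at a mean of 5.58 on both pairs. Their part in the levels of the 8 genes was not tested.

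The size of the change depended on which ESC arrays were used. Against ES2 and ES6 alone, Hmgcs1 rose by 0.44 (limma, adjusted p = 0.019) and Cyp51 by 0.51 (adjusted p = 0.042). For Cyp51 this dependence was smaller on 1422533_at, with differences of 0.94 from ES2 and ES6 and 1.13 from ES8 and ES10. The values that follow are again those of the probe sets that represent the genes, against ES2 and ES6 first. The difference then was 0.17 for both Idi1 (adjusted p = 0.248) and Dhcr7 (adjusted p = 0.147) and 0.13 for Insig1 (adjusted p = 0.376), and it was -0.06 for Mvd, -0.01 for Fdft1 and -0.08 for Sqle, none of which passed. Against ES8 and ES10 alone, a comparison added after seeing the data, 7 of the 8 genes rose (adjusted p between 9.06e-05 and 0.0121). Cyp51 rose by 1.40, Dhcr7 by 0.90, Hmgcs1 by 0.68 and Insig1 by 0.59, and Mvd by 0.45, Fdft1 by 0.39 and Idi1 by 0.34. Sqle differed by 0.13 (adjusted p = 0.359).

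Within embryoid bodies the mean of EB7 and EB9 exceeded that of EB1, EB3 and EB5 by 0.31 for Cyp51, 0.28 for Sqle and 0.24 for Hmgcs1. For Fdft1 and Insig1 the gap was 0.12 each, and for Dhcr7, Idi1 and Mvd it was 0.00, -0.02 and -0.07. Without EB7 and EB9, Hmgcs1 alone of the 8 genes passed the test on the probe set that represents each gene. Among all 19 probe sets of the 8 genes, 5 passed in that fit, more than the 4 of Hmgcs1 that reached log2 4. The sets within ESCs and within embryoid bodies part at the same place in the array numbers, with ES8, ES10, EB7 and EB9 the highest. The labels do not say what the numbers stand for, and a common origin of these sets was not tested.

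**Figure D2:**
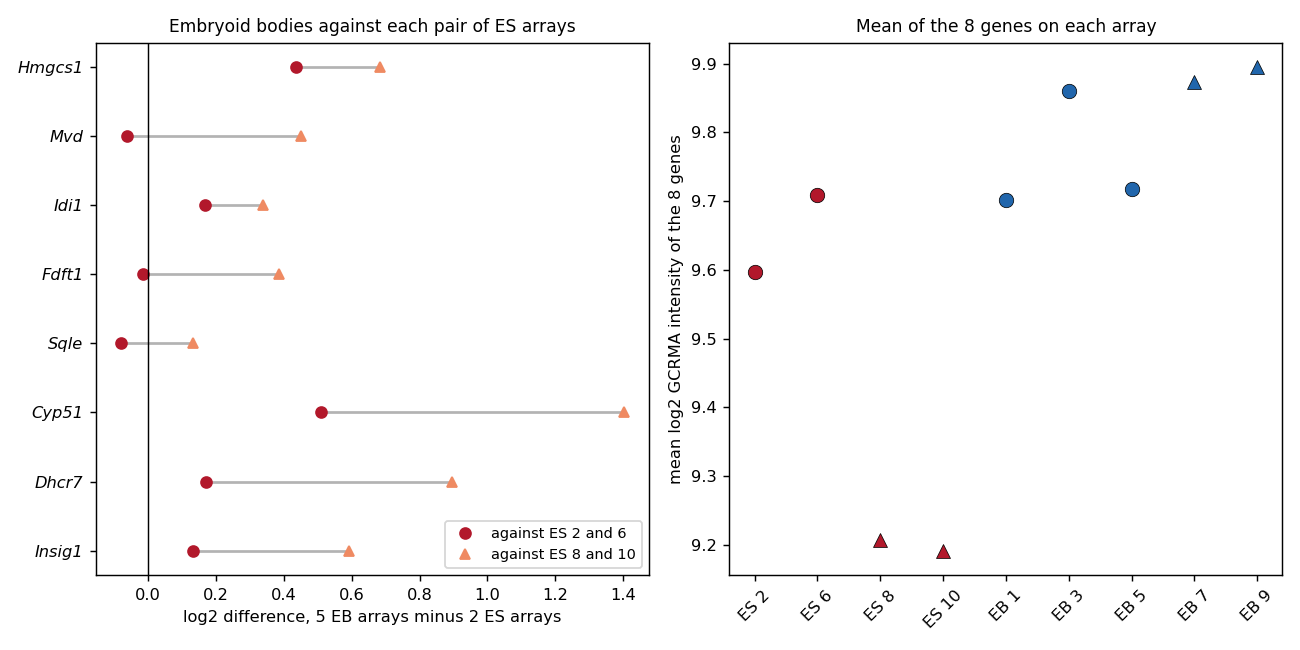
Left, log2 difference of the 5 embryoid body arrays from the mean of ES2 and ES6 (circles) and from the mean of ES8 and ES10 (triangles) for each of the 8 genes; right, mean log2 GCRMA intensity of the 8 genes on each array. Every triangle lies to the right of its circle, and the mean of the 8 genes was 9.21 and 9.19 on ES8 and ES10 against 9.60 or more on all other arrays.

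The genes also moved together from array to array. After each group's mean was subtracted, Pearson's r between a gene and the mean of the other 7 over the 9 arrays ran from 0.66 for Idi1 to 0.98 for Cyp51, with Insig1 at 0.96, Fdft1 at 0.94, Dhcr7 at 0.90, Mvd at 0.83, Hmgcs1 at 0.79 and Sqle at 0.75. These values take in the gap between the pairs of ESC arrays and leave 7 residual degrees of freedom, and are given as a description. Among 8872 genes with a mean of log2 6 or more, the median r with the mean of the 8 genes was 0.23. The 10 genes most like it were Ro60, Tmem230, Mcrip1, Vps35, Nipsnap2, Pls3, Klhdc2, Rbpj, Ptprk and Adgrl2, with r from 0.971 to 0.986, and none of them is on the lists of lipid genes used here. Of the listed genes, Fdps, the synthase of farnesyl diphosphate, came nearest at rank 68 (r = 0.945), followed by Srebf2 at rank 176 (r = 0.916) and Msmo1 at rank 195 (r = 0.911). Fdps read 10.37 and 10.33 on ES2 and ES6, 9.72 and 9.73 on ES8 and ES10, and 10.25 to 10.35 on embryoid body arrays. Srebf2 read 8.81 and 9.02, then 8.43 and 8.46, and 8.63 to 8.85 in embryoid bodies. Other lipid genes ran against the 8 genes, with r of -0.815 for the exporter Abca1, -0.73 for Ebp, -0.68 for Fasn and -0.60 for Erg28. The median r was 0.36 for the 12 other synthesis enzymes, 0.80 for genes that control SREBP and 0.71 for uptake and transport. It was 0.51 for fatty acid synthesis, 0.41 for mevalonate branches and 0.51 for the 3 ranked genes of the efflux list.

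The 8 genes were set beside the other enzymes of the pathway. Of 15 other synthesis enzymes 12 were paired with a probe set here. Of these, 5 rose, 1 fell and 6 did not pass, where 15.7% of all genes rose and 14.7% fell, and the median difference was 0.30. Before squalene, Mvk and Pmvk, the mevalonate kinases that act between Hmgcs1 and Mvd, differed by 0.00 and -0.03, and Fdps by 0.27 (adjusted p = 0.145). Hsd17b7, a ketoreductase of demethylation at carbon 4, rose by 1.90, Tm7sf2, a sterol 14-reductase, by 1.09, Msmo1, the methylsterol oxidase, by 0.61, Sc5d, the sterol 5-desaturase, by 0.60, and Nsdhl, a sterol dehydrogenase, by 0.46. Lbr, which carries a sterol 14-reductase like that of Tm7sf2 and also anchors chromatin to the nuclear lamina, fell by 0.86. Ebp, the sterol isomerase, differed by -0.13 and Erg28, a scaffold of the demethylation enzymes, by 0.13, and neither passed. Against ES2 and ES6 alone the rise of Msmo1 was 0.40 (adjusted p = 0.045). Without EB7 and EB9 the call for Tm7sf2 was lost (adjusted p = 0.0548). Fdps rose only without ES2 and ES6, by 0.58 (adjusted p = 0.000131).

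Probe sets that reached log2 4 disagreed for Lss, Hsd17b7 and Sc5d. Lss, lanosterol synthase, differed by 0.32 on 1420013_s_at (adjusted p = 0.0808), whereas on 1426913_at it rose by 1.80 (adjusted p = 0.000337). Hsd17b7 rose on 1457248_x_at and on 1448865_at, the latter from a mean of 2.25 to 4.04, and differed by 0.15 on 1417871_at (adjusted p = 0.300). Sc5d rose on 1451457_at and, by 1.39, on 1434520_at, and differed by 0.04 on 1424709_at (adjusted p = 0.629), where it read about 6.7.

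**Figure D3:**
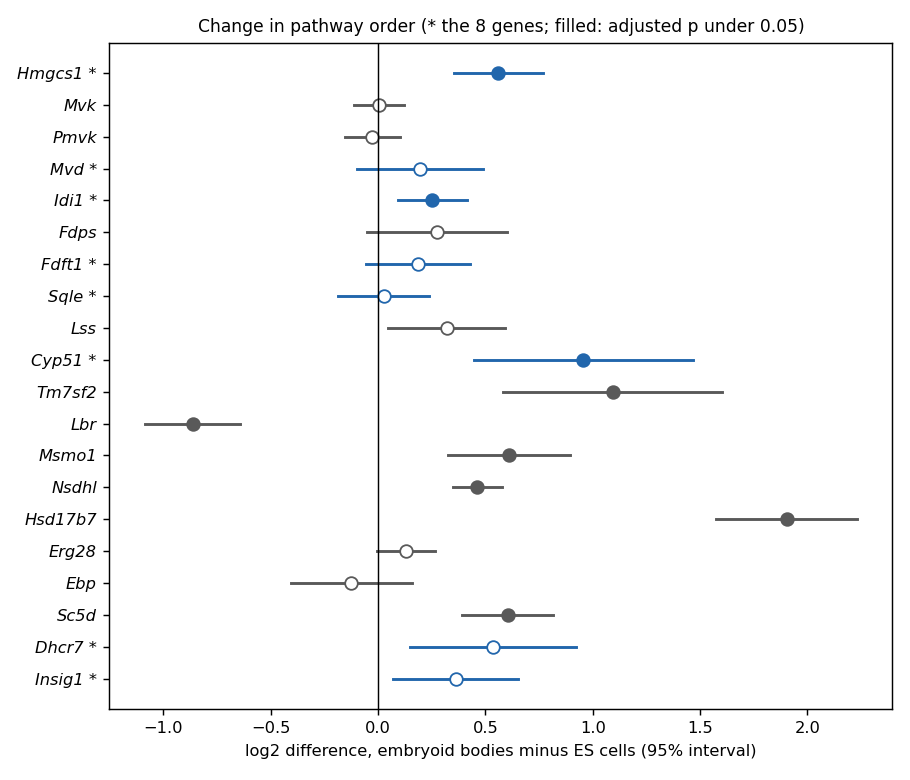
Log2 difference between embryoid bodies and ESCs, with 95% intervals, for the 8 genes (blue, starred) and the 12 other synthesis enzymes (grey) in pathway order from top to bottom, with Insig1 last; filled circles have an adjusted p under 0.05. The differences run from -0.86 for Lbr to 1.90 for Hsd17b7, and 3 of the 8 genes and 6 of the 12 others have filled circles.

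Of 7 paired genes that control SREBP 3 rose, 1 fell and 3 did not pass, against 15.7% of all genes that rose and 14.7% that fell. Scap rose by 0.49. Rnf139, an endoplasmic reticulum ubiquitin ligase, rose by 0.47, and Mbtps1, the first of the Golgi proteases, by 0.32. Both calls were lost without EB7 and EB9 and without ES8 and ES10, where Rnf139 differed by 0.29 (adjusted p = 0.0794) and Mbtps1 by 0.21 (adjusted p = 0.097). The call for Mbtps1 was also lost on the mean over its probe sets, which differed by -0.0015 (limma, adjusted p = 0.987). Mbtps2, the second protease, fell by 0.43 (adjusted p = 0.0376), a call lost in 9 of 20 alternatives, among them each fit without ES2, ES6, EB1, EB3, EB5 or EB7. Its difference was -0.68 without ES8 and ES10 and -0.18 without ES2 and ES6 (adjusted p = 0.153). The SREBP genes themselves differed by 0.05 for Srebf2 (95% interval -0.23 to 0.33) and by 0.07 for Srebf1 (95% interval -0.07 to 0.21). Insig2, the relative of Insig1, differed by 0.11 (95% interval -0.06 to 0.28).

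Genes of cholesterol uptake and transport within the cell mostly rose. Of 7 paired genes 5 rose and none fell, with a median difference of 0.91. Over all genes 15.7% rose and 14.7% fell, with a median of -0.04. Vldlr, a lipoprotein receptor, rose by 2.43, Scarb1, a receptor of high-density lipoprotein, and Lipa, the lysosomal acid lipase, each by 1.26, Npc2, which binds cholesterol in lysosomes, by 0.91, and Stard4, a sterol carrier, by 0.70. Npc1, the partner of Npc2, differed by 0.13 and the receptor Lrp8 by -0.13, and neither passed. On plain _at probe sets alone 2 of the list rose, and Lipa then differed by 0.04 (adjusted p = 0.696). Vldlr lost its call there too (limma, adjusted p = 0.0919), and its lowest difference over the alternatives was 0.45. Without ES8 and ES10 the call for Scarb1 was lost (1.06; adjusted p = 0.0521). ES8 and ES10 both lay below ES2 and ES6 for 6 of these 7 genes, against 31.0% of genes with a mean of log2 4 or more.

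Of 10 genes of fatty acid synthesis, which is controlled mainly by the SREBP-1 forms, 5 rose and 2 fell, against 15.7% and 14.7% of all genes. The desaturases rose: Fads1 by 2.72, Fads2 by 1.45, Scd1 by 1.17 and Scd2 by 0.76, as did malic enzyme, Me1, by 0.73. Elovl6, an elongase, fell by 0.56 and Acaca, acetyl-CoA carboxylase, by 0.26, a call lost without ES2 and ES6 (-0.20; adjusted p = 0.0964). Against ES2 and ES6 alone the rise of Scd1 was 0.67. Fasn, the fatty acid synthase, differed by -0.09 and Acly, ATP citrate lyase, by 0.06, and neither passed.

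Of 11 paired genes on a list of cholesterol efflux, esterification and the LXR receptors, which sense oxysterols, 3 fell and none rose in embryoid bodies. The esterification gene of the list, Soat1, and the LXR gene Nr1h2 were not paired with a probe set. The other LXR gene, Nr1h3, lay under log2 4 on every array, so the values say little on esterification or the receptors. The shares over all genes were 14.7% and 15.7%, and 4 of the 11 lay under log2 4 on every array. Apoe, the lipid-carrying apolipoprotein, fell by 1.47. Abcg1, a cholesterol exporter, fell by 0.30, a call lost in 5 of 20 alternatives, among them the fits without ES2, without ES6 and without both. Cyp7b1, an oxysterol hydroxylase, fell by 0.28, a call lost in 10 of 20, among them the fit without ES8 and ES10 and each fit without ES6, ES10, EB1, EB3, EB5 or EB7. Mylip, a ubiquitin ligase for lipoprotein receptors, differed by 0.47 (adjusted p = 0.0641) and passed in 3 of 20 alternatives. Abca1, the other main exporter, was higher on ES8 and ES10 than on ES2 and ES6 by 1.16, opposite to the 8 genes. It differed by 0.04 between embryoid bodies and ESCs, by 0.62 without ES8 and ES10 (adjusted p = 0.0156) and by -0.54 without ES2 and ES6 (adjusted p = 0.034).

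Of the 7 paired genes on branches that use mevalonate products 1 rose and 2 fell, against 15.7% and 14.7% of all genes. Fntb and Fnta, the subunits of farnesyltransferase, fell by 1.23 and 0.44. Dhdds, of dolichol synthesis, rose by 0.35 with overlapping groups, a call lost in 9 of 20 alternatives, among them quantile normalization, the fits without either pair of ESC arrays and each fit without ES6, ES10, EB1 or EB3.

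**Figure D4:**
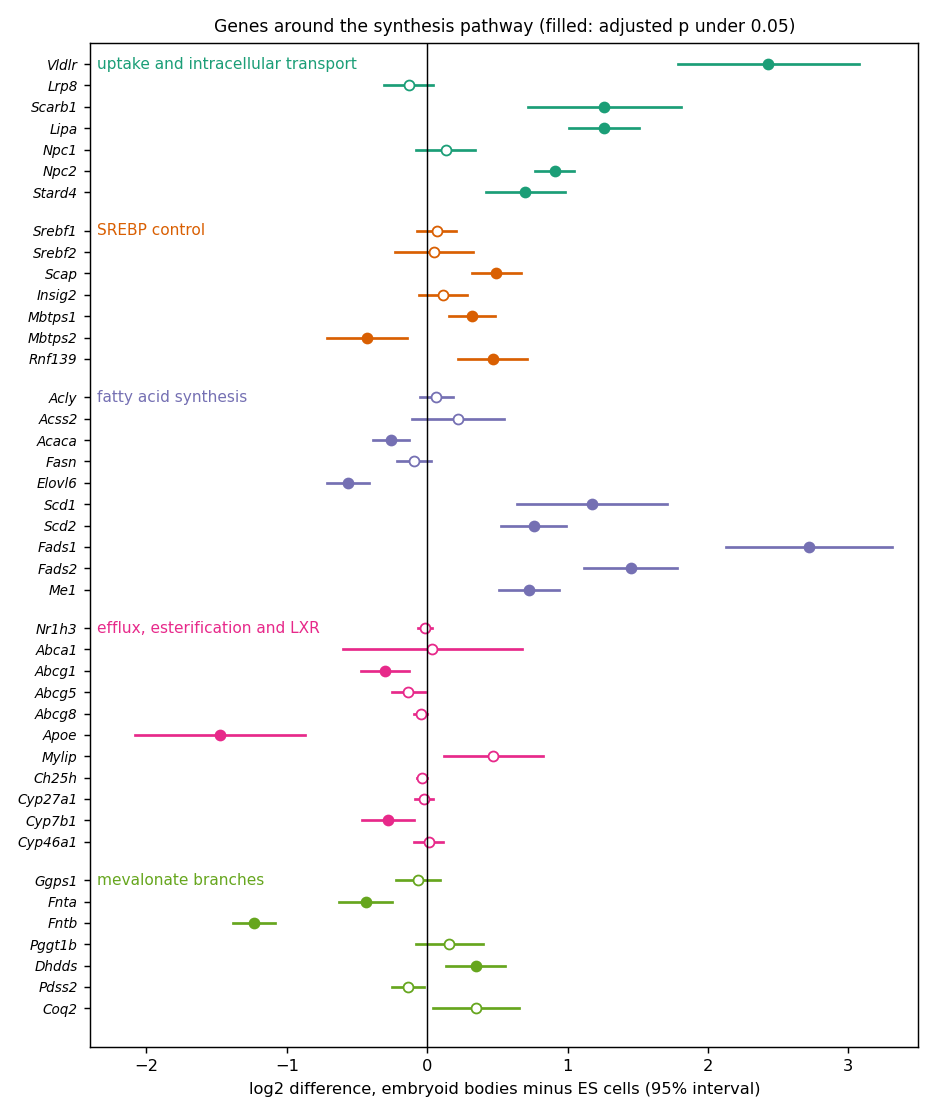
Log2 difference between embryoid bodies and ESCs, with 95% intervals, for the genes around the pathway, grouped by list and coloured by it; filled circles have an adjusted p under 0.05. Called genes of uptake and transport all lie to the right of 0, from 0.70 to 2.43. Called genes of the efflux, esterification and LXR list all lie to the left, from -0.28 to -1.47. No esterification gene of that list was paired, and none of its called genes is an LXR receptor.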

How the data were processed

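Total RNA of 4 ESC and 5 embryoid body samples was measured on Affymetrix Mouse 430 2.0 arrays. The deposited values are intensities on a linear scale, which the authors made with GCRMA. This method corrects each probe for background that depends on its sequence, gives the arrays a common distribution and combines probes into 1 value per probe set, and whether all 9 arrays were normalized together is not stated in the sources used here. Log2 of each value was taken with no further normalization. The 64 control probe sets of 45101 were left out. Depth is not defined for arrays, and the number of arrays limits the precision.

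Embryoid bodies were compared with ESCs in limma 3.58.1 (R 4.3.3) with lmFit and eBayes (trend and robust), two-sided, with Benjamini-Hochberg adjustment over 45037 probe sets; the fit was tested on simulated data. Calls were made at an adjusted p under 0.05. The array annotation paired 34945 probe sets with 1 symbol, 932 with several and 9160 with none. A gene was represented by its probe set with the highest mean over the 9 arrays among those paired with it alone. Probe sets ending in _x_at, _s_at or _a_at can also detect other transcripts. The lists outside the 8 genes held 123 entries, of which 111 were paired and 12 were not analysed here. The 8 genes and the lists were chosen with earlier results of these data known. Markers of neurons, the one list not described in the report, gave 1 rise and 2 falls among 7 genes, against 15.7% and 14.7% of all genes.

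Named genes were the 8 genes, every other synthesis enzyme, up to 6 called genes of each lipid list and 3 of each marker list with the largest change, and the 10 genes most like the 8. Genes that did not pass, Acta2, Twist1, Col1a1, Postn, Thy1, and further probe sets were named after their values were seen. Alternatives were quantile normalization, median centring, no trend or robust step, array weights, a mean of log2 4 or more, a fold of 2 or more, plain _at probe sets, the mean over probe sets, each array left out in turn, EB7 and EB9, ES8 and ES10, and, added after seeing the data, ES2 and ES6 left out. The tests between pairs of genes and the motif search were also added then. Motifs were searched on both strands of 250 bases of RefSeq GRCm38.p6.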

Additional observations from a re-analysis of the deposited data

Results flagged for a closer look

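Each group of arrays was checked on the 15 probe sets of the 8 genes that reached log2 4 on some array, 30 groups in all, for a single array far from the others; 3 were found, and such a gap arises by chance in about 1 in 20 groups. For Mvd, EB3 read 7.49 on 1448663_s_at while the other embryoid body arrays lay between 7.30 and 7.32. Of these, EB1, EB7 and EB9 held the identical value 7.3047, and the rate of about 1 in 20 does not allow for such ties. On the other probe set of Mvd, 1417303_at, ES10 read 5.52 while the other ESC arrays lay between 6.40 and 6.53. For Idi1, ES6 read 10.97 on 1451122_at while the other ESC arrays lay between 10.65 and 10.67; without ES6 the rise of Idi1 still passed the test.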

How the results depend on the processing

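The p of Hmgcs1 stayed under 0.05 in each of its 21 alternatives, counting an unadjusted exact permutation test, and that of Cyp51 in all but the fit without EB7 and EB9. Of the 8 genes 3 were called higher in embryoid bodies, and this count became 5 with probe sets of a mean of log2 4 or more, 0 with a fold of 2 or more, 1 without EB7 and EB9, and 7 without ES2 and ES6, the last added after seeing the data; with each array left out in turn it ran from 2 to 5, the latter without ES6. Of 19 probe sets 8 were called, and the count became 1 with a fold of 2 or more, 5 without EB7 and EB9, 5 without ES8 and ES10 and 13 without ES2 and ES6. Of the other synthesis enzymes 5 rose, and 2 with a fold of 2 or more. No gene of the 8 was called lower in any alternative. Dhcr7 passed in 6 and Insig1 in 5 of 21 alternatives. The sign turned without ES8 and ES10 for Mvd (-0.0625), Fdft1 (-0.0136) and Sqle (-0.0787). For Sqle it also turned with array weights (-0.0472), without EB7 and EB9 (-0.0844) and in 4 of the 9 fits with a single array left out, which ran from -0.0243 to 0.0808. Over all probe sets 4729 rose, and 1736 with a fold of 2 or more. The number that fell, 4778, became 7272 with median centring, 12834 with array weights, 12735 without EB9 and 1104 with a fold of 2 or more. The causes were not tested. No paired or blocked analysis was run, because the labels state neither pairs nor batches. With 4 and 5 arrays, small differences such as that of Sqle were not resolved, and 4 of the 19 probe sets lay near the floor of the scale.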
